A study of Mus musculus with 8 samples.

Results

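The genes described here make up the folding machinery and the unfolded protein response of the endoplasmic reticulum (ER), the compartment in which secreted and membrane proteins are threaded through a membrane channel, folded and checked. The set holds 35 mouse genes chosen by name, of which 34 are among the 12367 genes analysed, and Derl3 was not analysed here. They were sorted by role into 16 folding genes, 3 signalling genes, 10 degradation genes (9 with values) and 6 genes of the translocon. The libraries are RNA-seq libraries of untreated alveolar macrophages, the macrophages of the lung air spaces, taken at 3 weeks of age and sorted as CD45+ F4/80+ CD11c+ cells. The KO group is CD11c-Cre Tfam-fl/fl, in which Cre is expressed from the promoter of the CD11c gene, and the WT group is Tfam-fl/fl, which carries the same floxed alleles and no Cre. Each group has 4 libraries, and each library pools 3 to 5 animals, male, female or both. Neither group carries Cre without floxed Tfam, so loss of Tfam and presence of Cre cannot be told apart. In sorted cells measured in bulk, fewer cells of one type and less RNA per cell cannot be told apart either.

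In the ER, the Hsp70 chaperone BiP (Hspa5) and its partners hold unfolded chains, lectin chaperones hold glycoproteins, and disulfide isomerases pair cysteines. Chains that fail to fold have their sugars trimmed, pass to a membrane complex and are moved to the cytosol for destruction, a route called ER-associated degradation. When unfolded chains accumulate, the membrane sensors IRE1 (Ern1), ATF6 and PERK (Eif2ak3) signal to the nucleus. ATF6 and XBP1, whose mRNA IRE1 splices, are known to switch on both folding and degradation genes, while PERK acts through ATF4.

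Tfam, the targeted gene, had values of 4.52, 5.08, 4.29 and 3.52 in KO replicates 1 to 4, against 26.1, 35.2, 30.3 and 29.7 in WT replicates 1 to 4 (log2 fold change -2.55 with SE 0.117 and adjusted p = 1.02e-06). All values are the authors' normalised read numbers, in the order KO replicates 1 to 4 and WT replicates 1 to 4. The scaling did not follow the read totals of the analysed genes alone. KO replicate 2, with 30263201 reads, had a larger scaling step than WT replicate 4, with 29161957 (3 steps made 0.102 and 0.100). What else set the step was not worked out here. Each fold change, KO over WT, is a difference of means of log2(value + 1), tested with limma and adjusted by Benjamini-Hochberg over all genes. Read totals worked out from the spacing of the values were 20243772 to 30263201 per KO library and 24776683 to 29161957 per WT library, and no member had fewer than 632 reads in any library. All 10 alveolar macrophage markers looked at were present, led by Chil3 at a mean of 27808 in KO and 23528 in WT, but 3 rose (Itgax, Car4 and Plet1), 2 fell (Siglecf and Krt79) and 5 did not pass. Itgax, the CD11c gene that drives the Cre and is part of the sort gate, rose to a mean of 2049.5 in KO, against 1094 in WT. Siglecf, a surface marker of these cells, fell to a mean of 194 in KO, against 501 in WT, and Krt79 fell to 289.7 in KO, against 612 in WT. Markers of other cells moved with genotype too. Summed values of the 4 monocyte markers with values were 116 to 176 in KO and 35.5 to 57.4 in WT, and C1qa, C1qb, C1qc and Cx3cr1 of interstitial macrophages rose to means of 8.19 to 26.2 in KO, against 2.68 to 7.06 in WT. Mrc1, which makes up nearly all of the interstitial list's sum, averaged 3019.9 in KO and 3067 in WT, and neither it nor Lyve1 passed. That list summed to 2894 to 3405 in KO and 2736 to 3448 in WT. The 3 B cell and plasma cell markers with values, of a type that is rich in ER, summed to 8.99 to 15.6 in KO and 32.4 to 55.3 in WT. Nearly all of that sum was Prdm1, while Sdc1 averaged 0.993 in KO and 0.552 in WT and Ms4a1 averaged 0.856 in KO and 1.18 in WT. The part of these cells in the results below was not tested.

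A pair of libraries stood apart for these genes, KO replicate 4 and WT replicate 4. Replicate 4 was the highest library of its group for 20 of 34 members in KO and for 27 of 34 in WT, against 29.0% and 32.7% of all 12163 genes tested. Same-numbered pools also deviated together over all genes, so results are given unblocked first and then, where the call differs, with the replicate number as a block. Counts without both replicate-4 libraries are given beside them.

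Of the 34 members, 6 rose in KO and 4 fell at a limma adjusted p under 0.05, while 24 did not pass the test. Over all genes tested 38.7% were called, 18.7% higher and 20.0% lower, and the members' shares lie near or below these. The median log2 fold change was -0.08 over the members and -0.01 over all genes. The genes that rose were the stress sensors Atf6 and Ern1, the degradation genes Derl1, Sel1l and Edem1, and the translocon gene Ssr4. The genes that fell were the disulfide isomerases Pdia3 and Pdia6, the degradation gene Edem2 and the channel subunit Sec61b. With the replicate block 7 rose and 12 fell (22.4% and 24.3% of all genes), and without the replicate-4 libraries 7 rose and 11 fell (19.8% and 21.3% of all genes). Single libraries moved the count of 4 lower members. It was 8 when KO replicate 4 was left out, 2 when KO replicate 1 or WT replicate 4 was left out, and 1 when replicate 2 or 3 of either genotype was left out. Every KO library lay above every WT library for 5 members and below every WT library for 4, against 18.1% and 19.6% of all genes.

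**Figure D1:**
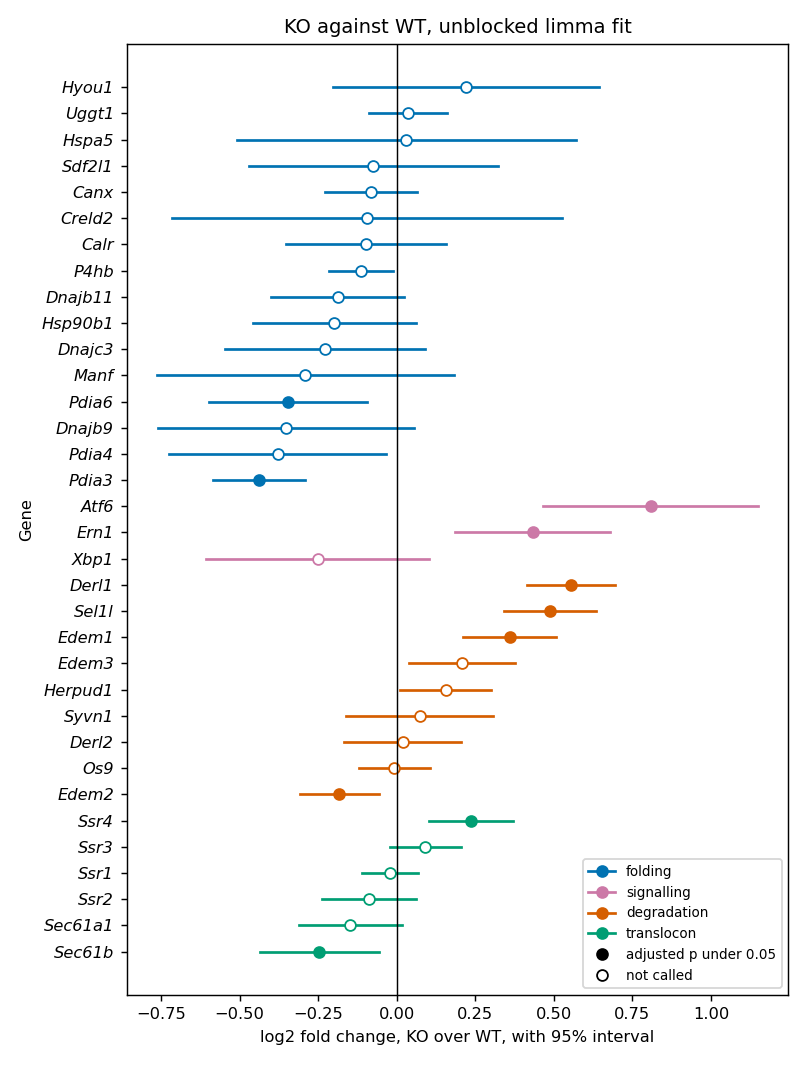
Log2 fold change of each of the 34 members, KO over WT, on the x axis with its 95% interval, sorted within role groups (colours); filled points have a limma adjusted p under 0.05. Atf6 stands farthest to the right at 0.81 and Pdia3 farthest to the left at -0.44, and most folding genes lie left of 0 with wide intervals.

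Atf6 had the largest log2 fold change of the 34 members. It encodes a membrane-bound transcription factor that is cut in the Golgi and travels to the nucleus. Its values were 157, 153, 165 and 97.4 in KO replicates 1 to 4, against 84.6, 80.9, 83.7 and 69.8 in WT replicates 1 to 4. Every KO library lay above every WT library, and replicate 4 was the lowest of both groups. The log2 fold change was 0.81 (SE 0.153, 95% interval 0.47 to 1.15 and adjusted p = 0.00239). Means were 143 ± 30.8 in KO and 79.8 ± 6.81 in WT (SD, n = 4 each), a ratio of 1.79. The gene lies on chromosome 1 from 170704674 to 170867771 in build GRCm38.

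Ern1 encodes the kinase and ribonuclease IRE1 alpha. It had 63.7, 70.8, 67.8 and 48.1 in KO replicates 1 to 4, against 43.4, 48.2, 45.2 and 45.8 in WT replicates 1 to 4. KO replicate 4 overlapped the WT range, and the other KO libraries lay above it. The log2 fold change was 0.43 with SE 0.110 and adjusted p = 0.0116, and the log2 fold change was 0.55 without the replicate-4 libraries.

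Xbp1, whose mRNA IRE1 cuts to yield the active transcription factor, was lower in KO in every same-numbered pair. Its values were 338, 353, 342 and 501 in KO replicates 1 to 4, against 417, 412, 399 and 601 in WT replicates 1 to 4. Both replicate-4 libraries were far above the rest of their group, and the groups overlapped. Unblocked, the log2 fold change of -0.25 (SE 0.158) did not pass (limma adjusted p = 0.244). With the replicate block the same difference had an SE of 0.0428 and an adjusted p of 0.00156, and without the replicate-4 libraries the adjusted p was 0.0026. It also passed without KO replicate 4 alone (log2 fold change -0.39 and adjusted p = 0.0463). Gene totals do not separate spliced from unspliced Xbp1 mRNA, so IRE1 activity was not read here.

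Among the 9 degradation genes with values 3 rose, 1 fell and 5 did not pass, against 18.7% higher and 20.0% lower over all genes. Their median log2 fold change was 0.16. Derl1 encodes derlin 1, a membrane protein of the exit route to the cytosol. It had 272, 267, 291 and 239 in KO replicates 1 to 4, against 184, 177, 185 and 179 in WT replicates 1 to 4. The groups were well apart, with a log2 fold change of 0.55 with SE 0.0621 and adjusted p = 0.000107. A processed pseudogene, Gm35638, is 95.4% identical to Derl1 over 652 of its 3175 transcript bases, so part of its reads could have been assigned elsewhere.

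Sel1l encodes the adaptor that stabilises the ubiquitin ligase HRD1 and brings substrates to it. Its values were 388, 425, 409 and 352 in KO replicates 1 to 4, against 279, 286, 264 and 291 in WT replicates 1 to 4. All KO libraries lay above all WT libraries, at a log2 fold change of 0.49 with SE 0.0650 and adjusted p = 0.000294. Syvn1, which encodes HRD1 itself, averaged 51.1 ± 5.49 in KO and 48.7 ± 6.88 in WT (SD, n = 4 each). Its log2 fold change of 0.07 did not pass, with a 95% interval of -0.16 to 0.31.

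The 3 EDEM genes, whose products help trim mannose from glycoproteins bound for degradation, split. Edem1 had 298, 337, 314 and 326 in KO replicates 1 to 4, against 230.0, 239, 250 and 275 in WT replicates 1 to 4. It rose without overlap of the groups (log2 fold change 0.36 with SE 0.0656 and adjusted p = 0.00198). Edem2 had 57.3, 56.5, 54.7 and 63.0 in KO replicates 1 to 4, against 64.2, 67.0, 65.3 and 66.5 in WT replicates 1 to 4. It fell by 0.18 on the log2 scale with SE 0.0561 and adjusted p = 0.0277 with every KO library below every WT library, and the call was lost on leaving out any one of KO replicates 1 to 3 or of WT replicates 2 and 3, at adjusted p of up to 0.0805. Edem3 averaged 85.1 ± 7.83 in KO and 73.4 ± 4.28 in WT (SD, n = 4 each). It missed the threshold at a limma adjusted p of 0.0515 (log2 fold change 0.21) and passed with the replicate block at 0.015, as it did when KO replicate 3 (0.0203) or WT replicate 4 (0.0394) was left out.

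The other degradation genes with values did not pass. Herpud1, a scaffold of the HRD1 complex, averaged 132 in KO and 118 in WT, with a log2 fold change of 0.16 (95% interval 0.01 to 0.30 and adjusted p = 0.0831). Os9, a lectin that recognises trimmed glycoproteins, averaged 176 in KO and 177 in WT (95% interval of the log2 fold change -0.12 to 0.11), and Derl2, a relative of Derl1, averaged 65.8 in KO and 65.0 in WT (95% interval -0.17 to 0.21).

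**Figure D2:**
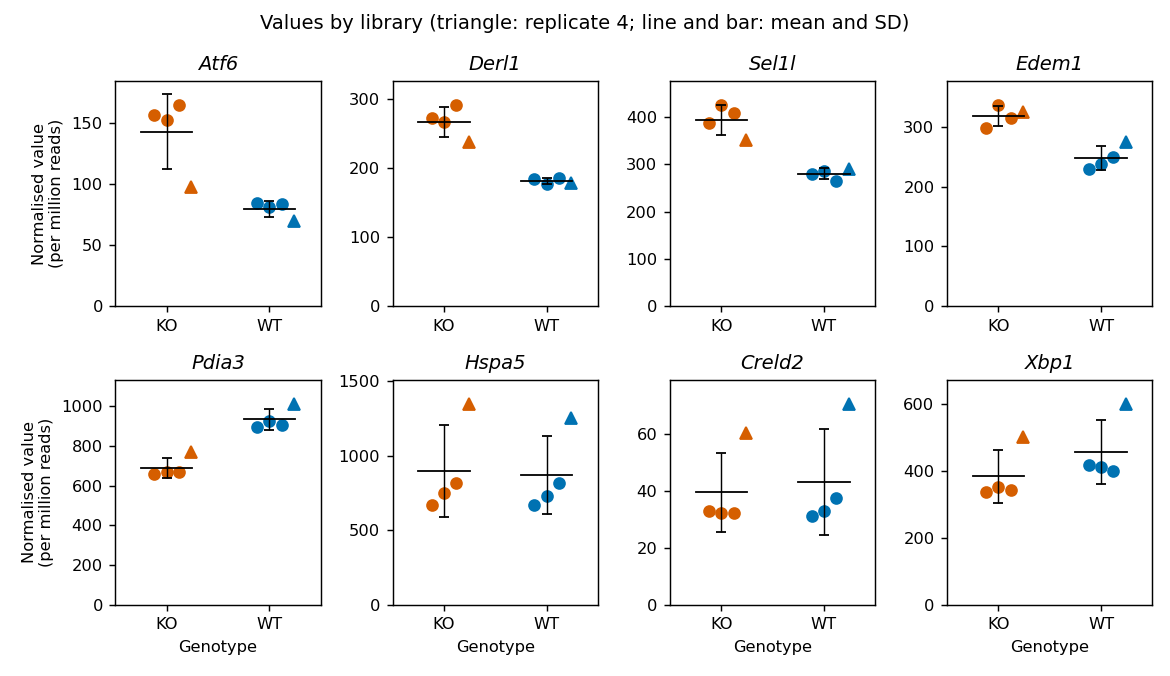
Normalised value (y axis, scaled read numbers, from 0) of 8 members by genotype, with 1 point per library, triangles for replicate 4, and the mean with SD. Atf6, Derl1, Sel1l and Edem1 are higher in all KO libraries, Pdia3 is lower in all, and for Hspa5, Creld2 and Xbp1 the replicate-4 triangle lies above the other libraries of both genotypes.

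None of the 16 folding genes rose in limma's unblocked test, also at an unadjusted p under 0.05 (0 higher) or with the block (0 higher). Pdia3 and Pdia6 fell and 14 did not pass, against 18.7% higher and 20.0% lower over all genes. The median log2 fold change of the folding genes was -0.15. Pdia3 encodes ERp57, the isomerase that works with calnexin and calreticulin on glycoproteins. Its values were 656, 667, 668 and 767 in KO replicates 1 to 4, against 894, 924, 904 and 1012 in WT replicates 1 to 4. The groups did not overlap, and the log2 fold change was -0.44 with SE 0.0658 and adjusted p = 0.000629.

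Pdia6, a further isomerase, had 237, 233, 224 and 286 in KO replicates 1 to 4, against 271, 294, 302 and 384 in WT replicates 1 to 4. KO replicate 4 overlapped WT replicate 1. The log2 fold change was -0.34 with SE 0.112 and adjusted p = 0.0349. Leaving out any one of KO replicates 1 to 3 or of WT replicates 2 to 4 ended the call, at adjusted p of up to 0.094, while the direction was kept and the block gave 0.000913. Pdia4, also an isomerase, averaged 174 ± 30.0 in KO and 228 ± 48.8 in WT (SD, n = 4 each), with a log2 fold change of -0.38. Its adjusted p was 0.0806 unblocked, 0.00048 with the block, 0.0301 without KO replicate 4 and 0.0484 without WT replicate 1. P4hb, the founding disulfide isomerase, averaged 571 ± 17.8 in KO and 619 ± 16.6 in WT (SD, n = 4 each). Every KO library of P4hb lay below every WT library, yet its log2 fold change of -0.11 did not pass (limma adjusted p = 0.0739).

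The most abundant folding genes that were not called showed small differences. Hsp90b1, the ER member of the Hsp90 family, had 1069, 1132, 1129 and 1386 in KO replicates 1 to 4, against 1201, 1246, 1309 and 1678 in WT replicates 1 to 4. The ranges overlapped, but KO was lower in each same-numbered pair (log2 fold change -0.20 and adjusted p = 0.208 unblocked and 0.00896 with the block). Calr, the soluble lectin chaperone calreticulin, had 825, 924, 854 and 1091 in KO replicates 1 to 4, against 883, 908, 966 and 1200.5 in WT replicates 1 to 4. Canx, its membrane-bound relative calnexin, had 830, 905, 886 and 955 in KO replicates 1 to 4, against 898, 916, 923 and 1045 in WT replicates 1 to 4. Neither passed with or without the block, and their 95% intervals were -0.35 to 0.16 and -0.23 to 0.07.

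Hspa5, the classic readout of this response, is described although it was picked after its values were seen. It had 667, 746, 817 and 1347 in KO replicates 1 to 4, against 669.8, 732, 819 and 1250.1 in WT replicates 1 to 4. Same-numbered libraries were close, while replicate 4 was 1.81 times the mean of the other KO libraries and 1.69 times that of the other WT libraries. The log2 fold change was 0.03 with an unblocked 95% interval of -0.51 to 0.57, and with the block the SE was 0.0455 (adjusted p = 0.604).

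The BiP partners and smaller ER proteins were lower in KO within pairs for the most part. Dnajb9, Dnajb11 and Dnajc3 encode cochaperones of BiP, and Manf a small ER protein that binds it. Dnajb9 averaged 155 ± 42.4 in KO and 196 ± 40.1 in WT, Dnajb11 136 ± 12.9 in KO and 155 ± 19.5 in WT, Dnajc3 208 ± 36.7 in KO and 245 ± 46.3 in WT, and Manf 87.8 ± 27.1 in KO and 107 ± 27.2 in WT (SD, n = 4 each). None of the 4 passed unblocked, with limma adjusted p of 0.157, 0.146, 0.239 and 0.312. All 4 were lower in KO in each of the 4 pairs, and with the block their adjusted p were 0.00112, 0.00992, 0.00272 and 0.00237. Without KO replicate 4 alone Dnajb9 (0.0146) and Manf (0.0441) passed too. Hyou1, which recharges BiP with ATP, averaged 261 ± 38.8 in KO and 230.0 ± 71.8 in WT (SD, n = 4 each) and did not pass unblocked (log2 fold change 0.22 and adjusted p = 0.393) or with the block (0.0594). It passed as higher without the replicate-4 libraries (log2 fold change 0.31, adjusted p = 0.0362) and without WT replicate 4 alone (0.41, adjusted p = 0.031). Sdf2l1, a partner of Dnajb11, Creld2, an ER protein induced by stress, and Uggt1, the enzyme that marks unfolded glycoproteins for another round of folding, did not pass under any of these fits. Their 95% intervals were -0.47 to 0.32, -0.72 to 0.53 and -0.09 to 0.16.

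With the block 8 of 16 folding genes fell and 0 rose, against 24.3% lower and 22.4% higher over all genes. Without the replicate-4 libraries 8 fell and 1, Hyou1, rose, against 21.3% lower and 19.8% higher over all genes. KO was lower in all 4 pairs for 10 of 16 folding genes and higher in all 4 for 0. Over all genes tested, 30.7% were lower in all 4 pairs and 28.0% higher in all 4. Among the 9 degradation genes, 6 were higher in KO in all 4 pairs and 1 was lower.

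Replicate 4 set most folding genes apart in both genotypes. In 15 of 16 folding genes replicate 4 was the highest library of both genotypes, against 16.5% of all genes tested, and Uggt1 was the exception. The median folding gene was 1.29 times as high in KO replicate 4 as in the mean of the other KO libraries, and 1.38 times as high in WT replicate 4 as in the mean of the other WT libraries. Over all genes these medians were 0.997 in KO and 0.986 in WT. Creld2 had the widest step, at 60.5 in KO replicate 4 against 32.1 to 33.1 in the other KO libraries, and at 70.7 in WT replicate 4 against 31.1 to 37.5 in the other WT libraries. Of the 9 degradation genes, only Syvn1 was highest in replicate 4 of both genotypes, at 59.3 in KO replicate 4 and 58.8 in WT replicate 4. Taken singly, WT replicate 4 was the highest WT library for 7 of the 9, against 32.7% of all genes tested. KO replicate 4 was the highest KO library for 2 of the 9, against 29.0% of all genes tested. Atf6, Ern1, Sel1l and Derl1 were lowest in replicate 4 among the KO libraries. The labels do not say what sets pool 4 apart, and a cause was not tested.

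**Figure D3:**
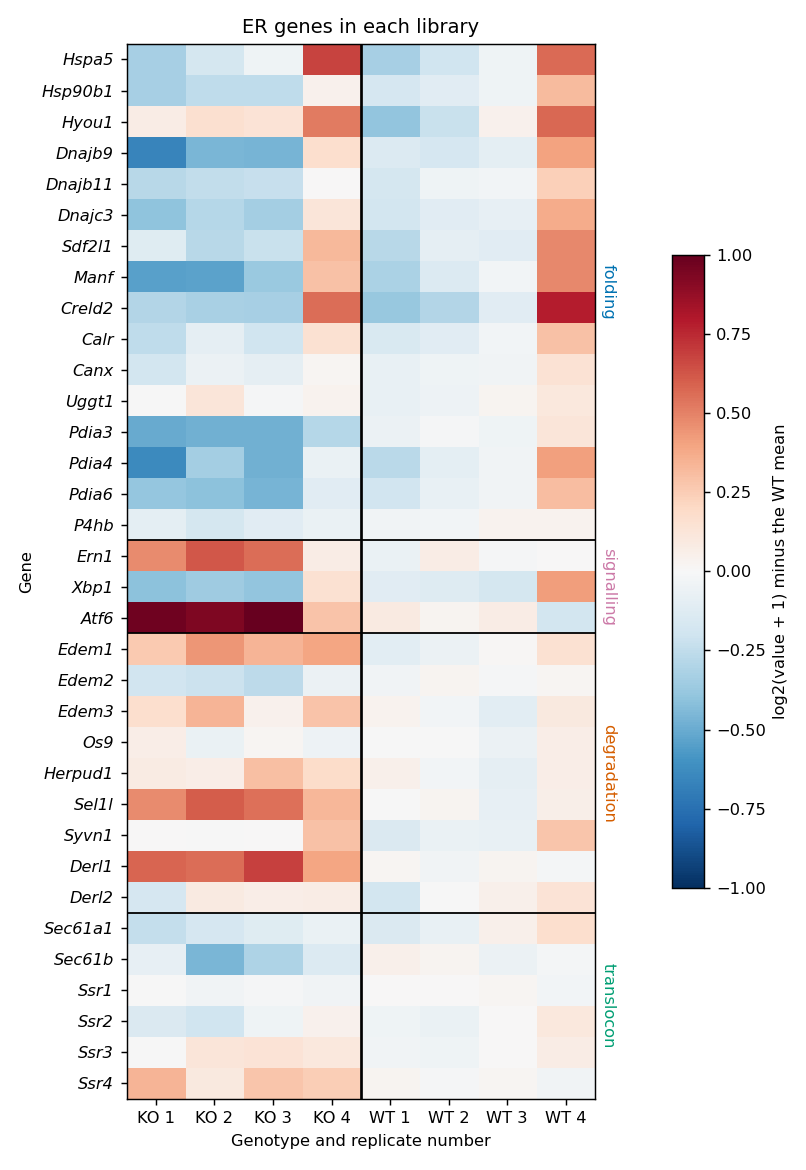
Each cell shows log2(value + 1) minus the WT mean for 1 of the 34 members (rows, by role) in 1 library (columns, KO then WT). All 16 folding genes and Xbp1 lie above the WT mean in WT 4, and 12 of the 16 and Xbp1 do in KO 4. Some do so only slightly, such as P4hb in WT 4 (0.035) and Dnajb11 (0.005) and Canx (0.017) in KO 4. Pdia3, Pdia4, Pdia6 and P4hb are below the WT mean in KO 4. Atf6, Ern1, Sel1l, Derl1 and Edem1 are above it in all KO libraries.

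The promoters of the folding genes are shown because these genes moved together between pools. The ER stress response element (ERSE), searched on both strands as CCAAT, any 9 bases and CCACG, is the site through which ATF6 and the factor NF-Y are known to act. RefSeq promoters of build GRCm38.p6, 250 bases before to 50 after each start, were given for 29 of the 35 members. An ERSE match was found in 7 of 14 folding genes, 2 of 9 degradation genes (Syvn1 and Derl3), 0 of 2 signalling genes and 0 of 4 translocon genes. Over all 27025 genes with a promoter the share was 0.137%, and over all 32851 promoters it was 0.119%. These shares are descriptions with no test. The matches in measured genes are given here 5′ to 3′ along each gene, with the fixed letters of the element in capitals (CGTGG and ATTGG mark it on the reverse strand). Hsp90b1 has 2 of them.
Hspa5, chr2:34772020-34772048, plus strand: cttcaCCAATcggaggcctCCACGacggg
Hsp90b1, chr10:86705633-86705661, minus strand: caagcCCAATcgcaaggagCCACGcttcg
Hsp90b1, chr10:86705528-86705556, minus strand: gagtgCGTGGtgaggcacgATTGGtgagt
Calr, chr8:84847070-84847098, minus strand: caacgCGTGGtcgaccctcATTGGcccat
Canx, chr11:50325795-50325823, minus strand: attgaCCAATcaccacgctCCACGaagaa
Dnajc3, chr14:118937822-118937850, plus strand: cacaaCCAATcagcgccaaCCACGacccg
Creld2, chr15:88819515-88819543, plus strand: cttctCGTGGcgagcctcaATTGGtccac
Pdia6, chr12:17266486-17266514, plus strand: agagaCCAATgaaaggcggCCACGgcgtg
Syvn1, chr19:6046527-6046555, plus strand: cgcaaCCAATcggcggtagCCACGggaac

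These elements end 26 bases (Syvn1) to 194 bases (the upstream one of Hsp90b1) before the RefSeq start. Herpud1 has the related ERSE-II, searched on both strands as ATTGG, any 1 base and CCACG, which 0.0365% of all promoters hold. The folding gene Dnajb11 holds a match too, 7 to 17 bases after its start (not shown), so that 1 of 14 folding genes and 1 of 9 degradation genes have one. Herpud1 also has TGATGCAA on its reverse strand, the core of the element that ATF4 binds with C/EBP partners. It was found in 1 of 29 members and in 0.895% of all promoters. Of 2 other elements searched, TGACGTG was found in 1 of 29 members, Hspa5 (2.01% of all promoters). The other, TGACGTCA, was found in 0 of 29 members (1.79%).
Herpud1 ERSE-II, chr8:94386372-94386392, plus strand: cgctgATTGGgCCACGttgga
Herpud1 ATF4-type element, chr8:94386312-94386329, plus strand: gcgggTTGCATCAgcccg

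The 8 measured genes with an ERSE match had a median log2 fold change of -0.10 in KO, with 0 higher and 1, Pdia6, lower. Of the called members with a promoter given, Pdia3, Ern1, Edem1, Edem2, Sel1l, Sec61b and Ssr4 held no ERSE match in this window. All 7 folding genes with a match, and Syvn1, were highest in replicate 4 of both genotypes, as were all the other folding genes except Uggt1. So were Xbp1, which held no match, and Sec61a1 and Ssr2, for which no promoter was given. A match describes letters and not binding.

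The contrast of folding with degradation genes ran in 1 direction in each pair. The median log2 fold change was -0.15 over 16 folding genes and 0.16 over 9 degradation genes, a difference of -0.31. In each library, the mean of log2(value + 1) relative to WT was taken over each role. For folding it was -0.31, -0.24, -0.25 and 0.15 in KO replicates 1 to 4, against -0.20, -0.11, -0.04 and 0.35 in WT replicates 1 to 4. For degradation it was 0.14, 0.20, 0.19 and 0.20 in KO replicates 1 to 4, against -0.04, -0.02, -0.04 and 0.09 in WT replicates 1 to 4. The average over degradation genes was thus higher in every KO library than in any WT library, while the folding averages of both genotypes overlapped. Gene by gene, every KO library lay above every WT library for 3 of the 9 degradation genes, Derl1, Sel1l and Edem1. For 1, Edem2, every KO library lay below, and for 5 the groups overlapped. Over all genes tested, 18.1% lay above and 19.6% below in this way. Folding minus degradation came to -0.45, -0.44, -0.44 and -0.06 in KO replicates 1 to 4, against -0.16, -0.10, -0.00307 and 0.26 in WT replicates 1 to 4. KO replicate 4 lay within the WT range. Within same-numbered pairs, KO minus WT was -0.29, -0.35, -0.44 and -0.31. These averages are descriptions with no test, since the members were chosen with earlier results known.

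**Figure D4:**
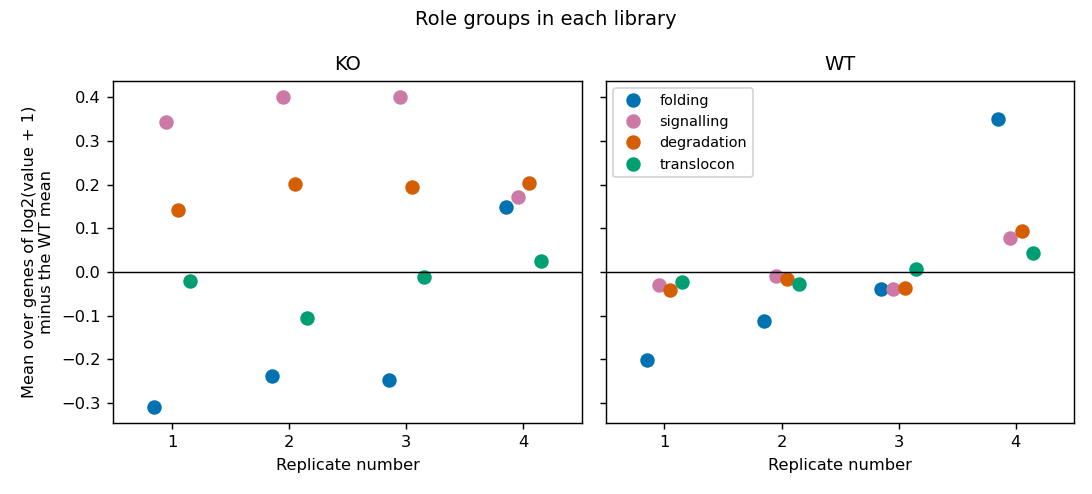
Mean over the genes of each role of log2(value + 1) minus the WT mean (y axis), by replicate number (x axis) in KO and WT. Degradation genes lie at 0.14 to 0.20 in the KO libraries, and folding genes step up in replicate 4 of both genotypes, to 0.15 in KO and 0.35 in WT.

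Of the 6 translocon genes 1 rose, 1 fell and 4 did not pass, against 18.7% higher and 20.0% lower over all genes. Ssr4, a subunit of the TRAP complex that assists the channel, had 78.0, 65.9, 74.7 and 73.2 in KO replicates 1 to 4, against 62.8, 61.2, 62.4 and 60.1 in WT replicates 1 to 4. All KO libraries were above all WT libraries (log2 fold change 0.24 with SE 0.0598 and adjusted p = 0.0111). Sec61b, a small subunit of the channel, had 40.7, 31.1, 34.6 and 39.0 in KO replicates 1 to 4, against 44.6, 43.9, 41.3 and 42.6 in WT replicates 1 to 4. The groups did not overlap, and the log2 fold change was -0.25 with SE 0.0845 and adjusted p = 0.0432. This call was lost on leaving out KO replicate 2, KO replicate 3 or any single WT library, at adjusted p of up to 0.105, under quantile normalisation (0.0561) and under median centring (0.0532). Gm10320, a gene 98.3% identical over 474 of the 564 bases of the Sec61b transcript, could have taken part of its reads, so its value is uncertain.

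Sec61a1, the pore-forming subunit, averaged 174 ± 8.76 in KO and 194 ± 18.7 in WT (SD, n = 4 each), and its log2 fold change of -0.15 passed with the block (adjusted p = 0.0305) and not without it (0.14). The other TRAP subunits did not pass under either fit. Ssr1 averaged 216 in KO and 219 in WT, Ssr2 66.1 in KO and 70.2 in WT, and Ssr3 283 in KO and 266 in WT. Their 95% intervals were -0.11 to 0.07, -0.24 to 0.06 and -0.02 to 0.20.

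Levels per kilobase of annotated exon put the members in order. Calr was highest, at 321 in KO and 343 in WT, followed by Hsp90b1 at 292 in KO and 337 in WT. Pdia3 came next in both, at 219.6 in KO and 297 in WT, and in KO it stood beside Hspa5 at 211, within the spread of that gene between pools. The sensors were among the lowest, with Ern1 at 7.66 in KO and 5.59 in WT and Atf6 at 15.5 in KO and 8.64 in WT. Of the degradation genes, Derl1 was highest in KO at 80.4, against 54.5 in WT, where Os9 was highest at 67.4, against 67.1 in KO. Exon lengths came from GENCODE M21, which need not be the annotation behind the values.

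Further genes of the same pathways were taken from 6 lists, 81 genes with values in all. Of these 16 rose, 10 fell and 55 did not pass, with a median log2 fold change of 0.04, against 18.7% higher and 20.0% lower over all genes. With the block 22 rose and 18 fell, against 22.4% higher and 24.3% lower over all genes.

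Of the 12 further signalling genes 4 rose and 3 fell, against 18.7% higher and 20.0% lower over all genes. With the block 5 rose and 5 fell, against 22.4% higher and 24.3% lower over all genes. Ddit3, the stress transcription factor CHOP, had 19.5, 30.1, 33.1 and 15.4 in KO replicates 1 to 4, against 6.02, 6.56, 5.85 and 7.55 in WT replicates 1 to 4. The groups were apart (log2 fold change 1.71 with SE 0.215 and adjusted p = 0.000207), with KO replicate 4 the lowest KO library. Atf4, its regulator downstream of PERK and of the other kinases that phosphorylate eIF2 alpha, averaged 277 ± 49.5 in KO and 142 ± 13.6 in WT (SD, n = 4 each; log2 fold change 0.95 and adjusted p = 0.000276). The proteases that cut ATF6 in the Golgi split. Mbtps2, the site-2 protease, averaged 80.2 ± 11.3 in KO and 50.5 ± 3.10 in WT (log2 fold change 0.65 and adjusted p = 0.000628), and Mbtps1, the site-1 protease, averaged 71.5 ± 2.43 in KO and 82.7 ± 1.93 in WT (log2 fold change -0.21 and adjusted p = 0.00711). Eif2ak3, the sensor PERK itself, named after its values were seen, was lower in KO. It had 47.9, 41.7, 42.4 and 48.1 in KO replicates 1 to 4, against 58.5, 55.2, 50.9 and 62.7 in WT replicates 1 to 4 (log2 fold change -0.33 with SE 0.0790 and adjusted p = 0.00883). The 3 sensor genes therefore did not share a direction, with Atf6 and Ern1 higher and Eif2ak3 lower in KO.

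Among 16 further folding genes 3 rose and 2 fell, against 18.7% higher and 20.0% lower over all genes. Ero1l, the oxidase that recharges disulfide isomerases, averaged 204 ± 36.7 in KO and 129.9 ± 3.84 in WT (log2 fold change 0.63 and adjusted p = 0.00224). Sil1, which exchanges nucleotide on BiP, averaged 32.5 ± 3.48 in KO and 24.3 ± 1.68 in WT. The isomerase Txndc5 averaged 77.5 ± 3.67 in KO and 117 ± 9.66 in WT (log2 fold change -0.59 and adjusted p = 0.000115), and the prolyl isomerase Ppib averaged 131 ± 5.84 in KO and 152 ± 2.75 in WT. With the block 4 rose and 6 fell, against 22.4% higher and 24.3% lower over all genes.

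Among 20 further degradation genes with values 3 rose and 2 fell, against 18.7% higher and 20.0% lower over all genes. Aup1, which recruits a ubiquitin-conjugating enzyme to the ER, averaged 99.1 ± 1.74 in KO and 72.9 ± 2.86 in WT (log2 fold change 0.44 and adjusted p = 9.31e-05). Erlin2, a membrane scaffold for degradation of IP3 receptors, averaged 90.3 ± 2.14 in KO and 79.0 ± 2.83 in WT. Vcp, the ATPase that pulls chains into the cytosol, averaged 384 ± 12.6 in KO and 461 ± 17.2 in WT (log2 fold change -0.26 and adjusted p = 0.00196), and Ngly1, which strips their sugars, averaged 55.5 ± 3.00 in KO and 65.8 ± 4.42 in WT. With the block 5 rose and 2 fell, against 22.4% higher and 24.3% lower over all genes.

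Of 16 further translocation genes 2 rose (Srpr and Srp68, of the signal recognition particle and its receptor) and 1 fell (Sec11a, of signal peptidase), against 3 and 2 with the block. Of 13 glycosylation genes 2 rose (Stt3b and Prkcsh) and 2 fell (Tusc3 and Rpn1), so that subunits of oligosaccharyltransferase, to which Stt3b, Tusc3 and Rpn1 belong, moved in both directions. Of 4 genes named as receptors for autophagy of the ER, 2 rose, Rtn3 and Tex264, with log2 fold changes of 0.23 each. Over all genes tested, 18.7% rose and 20.0% fell unblocked, and 22.4% rose and 24.3% fell with the block.

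**Figure D5:**
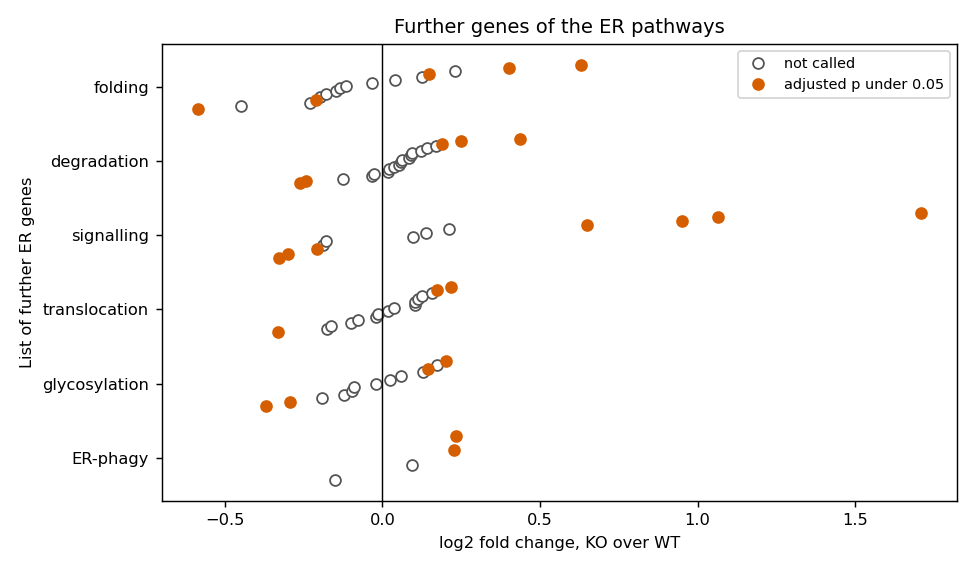
Log2 fold change, KO over WT (x axis), of the 81 further genes in 6 lists (y axis), with filled points for a limma adjusted p under 0.05. Called points lie on both sides of 0 in every list but the ER-phagy list, and Ddit3 stands farthest to the right at 1.71.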

How the data were processed

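The samples are 4 KO and 4 WT libraries, grouped and numbered by their titles. Per the submitters' processing notes, the tools named are RSEM 1.3.1, cutadapt 1.7.1, CASAVA 1.8.2 and limma, and the build is GRCm38. Per the labels' protocols, a directional kit was used, and no aligner, annotation release or strand setting is stated in these sources. The authors deposited 1 normalised signal value per gene and library. Each equals a whole read number plus 0.5, times a scaling step of its library (100% of values, at a tolerance of 0.01).

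Tests were run on log2(value + 1) of genes reaching 1 in at least 4 libraries, by limma 3.58.1 in R 4.3.3 (two-sided, variance trend, Benjamini-Hochberg over all 12163 genes, threshold 0.05), after a test on simulated data. 95% intervals are limma's and unadjusted. Same-numbered libraries deviated together (correlations of 0.286 to 0.431, against -0.374 to 0.0917 for other pairs), so a replicate block was run too. The pairing rests on these correlations alone. The labels leave unsaid whether pools share animals, so p-values measure the spread between these pools. The members and lists were chosen with earlier results of these data known. The rule for named genes was all members, values in every library for called members, signalling genes and the 3 most abundant uncalled ones, and up to 4 called genes with the lowest p of each further list, with Atf4, Ddit3 and Tfam. Exons of Hsp90b1, Manf, Pdia3, Syvn1, Derl2 and Ssr2 overlap those of another gene in the table. Besides the matches of Derl1 and Sec61b given above, pseudogenes match parts of Calr and Dnajb9. They are 92.5% identical over 495 of 2184 transcript bases of Calr and 93.3% identical over 697 of 2461 of Dnajb9. Dendritic, neutrophil, epithelial and endothelial markers summed to 17.3 to 29.7, 92.2 to 136, 128 to 177 and 28.6 to 45.2 in KO, against 16.3 to 22.2, 78.5 to 114, 124 to 225 and 18.7 to 80.8 in WT. Within the neutrophil sum Cxcr2 rose to 75.1 in KO, against 13.3 in WT, while Csf3r fell to 18.8 in KO, against 56.1 in WT, and S100a9 fell to 3.82 in KO, against 11.9 in WT. Clec9a of the dendritic list rose and Abca3 of the epithelial list fell. Eosinophil and T or NK cell markers were not analysed here.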

Additional observations from a re-analysis of the deposited data

Results flagged for a closer look

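Of 68 sets of 4 libraries (34 members in each genotype), 12 held a library far from its group, where chance gives about 1 in 20. Of these 7 were KO replicate 4, 4 were WT replicate 4 and 1 was another library. In KO replicate 4, Hyou1 stood at 318.7 against 234 to 248 in the other KO libraries, Dnajb11 at 155.1 against 127 to 131, Manf at 128.0 against 71.2 to 80.3, and Creld2 at 60.5 against 32.1 to 33.1. Pdia3 stood there at 766.5 against 656 to 668, Xbp1 at 501.4 against 338 to 353, and Syvn1 at 59.3 against 48.1 to 48.6. In WT replicate 4, Dnajb9 stood at 256.3 against 172 to 181 in the other WT libraries, Dnajc3 at 313.3 against 213 to 228, Creld2 at 70.72 against 31.1 to 37.5, and Xbp1 at 600.9 against 399 to 417. Derl2 was low in KO replicate 1, at 57.65 against 68.0 to 69.2 in the other KO libraries. Genes that move together are not independent, so the flags do not count as separate events.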

How the results depend on the processing

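Of the 10 called members, 7 (Pdia3, Ern1, Atf6, Edem1, Sel1l, Derl1 and Ssr4) kept their call in each of 15 alternatives. The number of members called lower, 4 as reported, was 12 with the replicate block, 11 without replicate 4 in both groups, and 1 to 8 over the fits that leave out 1 library. Folding genes called higher numbered 0 as reported and 1 without replicate 4 in both groups, and 0 to 1 over those fits. Os9 changed sign under median centring (0.0154), quantile normalisation (0.00943) and without replicate 4 in both groups (0.0301), Ssr1 under median centring (0.00167) and Hspa5 under quantile normalisation (-0.0465). With 1 library left out, values ran from -0.184 to 0.221 for Hspa5, -0.0309 to 0.0151 for Os9, -0.0414 to 0.0801 for Derl2, -0.208 to 0.0867 for Sdf2l1 and -0.314 to 0.165 for Creld2; none of these sign changes involved a called gene, and their cause was not tested. The other counts, Tfam and the folding-minus-degradation difference kept their direction and size class, the last at -0.414 to -0.253 with 1 library left out. Median centring and quantile normalisation moved the calls of Edem3 and Sec61b, and quantile normalisation also those of Hsp90b1 and P4hb. Other pseudocounts and no filter moved no call of a member.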
